A study of Mus musculus with 18 samples.

Results

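Intratumoral injection of 100 µg of a free STING agonist was compared with injection of 20 µg of the same agonist in B16F10 tumors, a transplantable mouse melanoma of the C57BL/6 strain. The comparison rests on 4 of the 18 tumors of the study, 2 at each amount, which were chosen by the amount in their names. In each case 1 dose was given and the tumor was taken 24 h later. According to the methods of the study the mice were female and were 5 to 6 weeks old when purchased, and the tumor cells were placed under the skin of the right flank. The agonist is named CL656 in the sample labels and CDN2, a cyclic dinucleotide, in the study. A pair of tumors that received PBS once served as the background for each amount. The model also held tumors given unloaded extracellular vesicles or vesicles loaded with CDN2 as 1 dose, and tumors given PBS, 20 µg CDN2 or loaded vesicles in 2 doses, 16 tumors in 8 groups in all. The remaining 2 tumors received CL656 in 2 doses at an amount that their labels do not give, and they entered no comparison. Bulk RNA of the whole tumor was sequenced, so melanoma cells, vessels, stroma and immune cells were measured together.

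STING is an adaptor protein of the endoplasmic reticulum that binds cyclic dinucleotides and signals through the kinase TBK1 to the transcription factor IRF3 and to NF-kB. The first genes to follow are type I interferons and inflammatory cytokines, and the secreted interferon then induces antiviral genes in neighboring cells. Interferon gamma, which comes mostly from T and NK cells, induces a partly distinct program that includes major histocompatibility complex (MHC) genes and the immunoproteasome, which cuts proteins into the peptides that MHC class I molecules display. Endothelial cells also carry STING, and injected agonists are known to act on tumor vessels as well as on immune cells.

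The libraries of the 4 tumors held between 39179959 and 42121056 expected read counts, and those of the 2 PBS tumors 43549581 and 48388504. Mitochondrial genes took 1.95% and 2.3% of the counts at 100 µg, 3.33% and 3.31% at 20 µg and 2.97% and 2.86% in PBS. The melanocyte genes that mark B16F10 cells were abundant in every tumor, with summed levels of 32860 and 34070 CPM (counts scaled to a common library size) at 100 µg against 36700 and 35090 CPM at 20 µg, and none of the 20 measured markers changed in edgeR, the test described below (3 had an unadjusted p below 0.05, and DESeq2 called 2 higher). Replicate tumors correlated at r = 0.987 across genes at 100 µg and r = 0.982 at 20 µg, and the second 20 µg tumor carried more interferon, blood and neutrophil transcripts than the first. The labels do not say whether the tumors of a group came from separate cultures or cohorts. The p-values therefore measure only the spread between tumors within groups, shared over the 16 tumors and 8 groups of the model.

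Of 16927 genes tested by edgeR's quasi-likelihood test, 77 changed between the amounts, here meaning a Benjamini-Hochberg adjusted p below 0.05 and a ratio above 2. The 39 genes that rose at 100 µg were 0.23% of the genes tested and the 38 that fell were 0.224%. At an unadjusted p below 0.05, 6.56% of genes were higher at 100 µg and 9.97% were lower. These shares are the background for counts of list members below, also where they are not repeated. Both tumors of 1 amount lay above or below both tumors of the other for most genes even without a call. At 100 µg, 30.3% of genes lay entirely above and 28.7% entirely below. Why the amounts separated in so many genes was not tested. The adjusted p of the 77 genes lay close to the limit, and the smallest was 0.0137. The number of calls fell to 14 when the first 100 µg tumor was left out and to 0 when the second 100 µg tumor, the first 20 µg tumor or the second 20 µg tumor was left out, although between 1654 and 2301 genes then still had an unadjusted p below 0.05 in edgeR. The same fit with DESeq2 called 398 genes (193 higher and 205 lower), which included all 77. List counts from DESeq2 below are to be read against these larger numbers, not against the edgeR shares. A single-gene exact permutation test of 2 against 2 tumors cannot give a p below 0.333.

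Among the 26 gene lists examined, endothelial genes made up most of the listed genes that rose. The lists and their members were chosen with earlier results of these data known. Shares of list members, here and below, are therefore descriptions and not independent tests of the lists. Of 40 endothelial genes measured, 9 were called higher at 100 µg, against 0.23% of all genes, and none lower. At an unadjusted p below 0.05 in edgeR, 27 were higher, where 6.56% of all genes were. DESeq2 called 21 higher, of 193 over all genes. The median difference of the list was 1.24 on the log2 scale, against 0.0139 over all genes tested. Flt1, a receptor for vascular endothelial growth factor (VEGF), was at 17.4 and 25.2 CPM in the 100 µg tumors, 7.65 and 6.57 CPM in the 20 µg tumors and 20.1 and 17.6 CPM in the PBS tumors. The 100 µg and PBS tumors overlapped, and the 20 µg tumors were lowest. Flt1 rose by 1.58 ± 0.24 (log2, SE; adjusted p = 0.0309 in edgeR) from 20 to 100 µg.

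Kdr, the main signaling receptor for VEGF, was at 9.54 and 15 CPM at 100 µg, 4.45 and 3.41 CPM at 20 µg and 17.4 and 17.1 CPM in PBS, so the 20 µg tumors were lowest and the 100 µg tumors lay below PBS. Its dose difference was 1.64 ± 0.26 (adjusted p = 0.0309, edgeR). Cdh5, the VE-cadherin of endothelial junctions, was at 29.5 and 38 CPM at 100 µg, 10.8 and 10.4 CPM at 20 µg and 26.7 and 26.2 CPM in PBS. Pecam1, the adhesion molecule CD31, was at 30.7 and 43.2 CPM at 100 µg, 11.4 and 13.7 CPM at 20 µg and 29.5 and 32.8 CPM in PBS. In both genes the 20 µg tumors were lowest; the 100 µg and PBS tumors overlapped for Pecam1, and both 100 µg tumors lay above PBS for Cdh5. The dose differences were 1.67 ± 0.26 for Cdh5 (adjusted p = 0.0309, edgeR) and 1.56 ± 0.26 for Pecam1 (adjusted p = 0.0316, edgeR). In GRCm38, Flt1 lies at chr5:147561604-147726011, Kdr at chr5:75932827-75978458, Cdh5 at chr8:104101625-104144511 and Pecam1 at chr11:106654217-106750628.

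**Figure D1:**
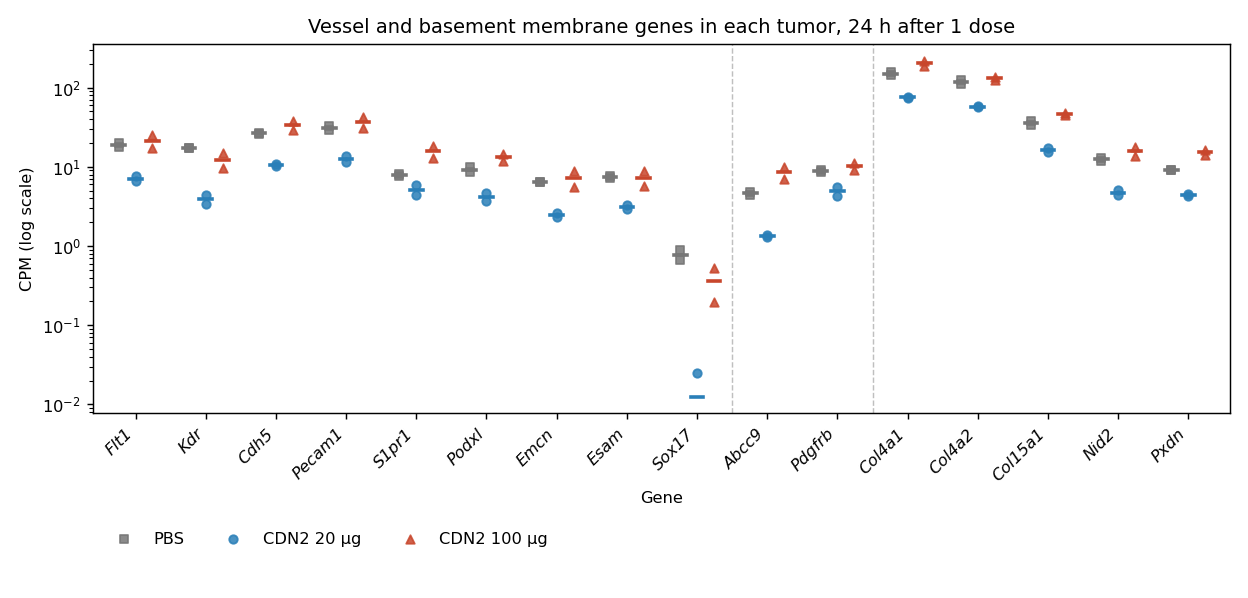
Levels of 16 vessel and basement membrane genes in each tumor, in CPM on a log axis, with gray squares for PBS, blue circles for 20 µg CDN2 and red triangles for 100 µg CDN2; the short line is the mean of 2 tumors. The dashed lines part endothelial genes, pericyte genes and basement membrane genes. All genes shown but Pdgfrb were called higher at 100 µg, so that the 20 µg tumors lie below the 100 µg tumors in all 16 largely follows from that choice. Eng and Tbx2, listed genes that were lower at 100 µg, are not shown. Sox17 had 0 counts in the second 20 µg tumor, which a log axis cannot show.

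S1pr1, the endothelial receptor for sphingosine 1-phosphate, was at 12.9 and 18.4 CPM at 100 µg, 4.38 and 5.9 CPM at 20 µg and 8.15 and 7.7 CPM in PBS, and it was the only called endothelial gene that did not also pass the test as lower at 20 µg than in PBS. The remaining called members, named here after their values were seen, were Podxl, Emcn, Esam and Sox17, with differences of 1.67 for Podxl, 1.55 for Emcn and 1.24 for Esam. Sox17, a transcription factor of arterial endothelium, had 8 and 21 counts at 100 µg, 1 and 0 counts at 20 µg and 30 and 44 counts in PBS, which is too few at 20 µg for a fold. Fgd5, an endothelial guanine nucleotide exchange factor that was in no list, rose from 0.4 and 0.419 CPM at 20 µg to 2 and 2.6 CPM at 100 µg, against 2.58 and 2.4 CPM in PBS (log2 difference 2.48 ± 0.30, adjusted p = 0.0175, edgeR). Adgrf5, an adhesion receptor abundant in endothelium, rose by 1.71 ± 0.22 (adjusted p = 0.0207, edgeR).

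Not every endothelial gene shared this pattern. Eng, the coreceptor endoglin, was at 173 and 198 CPM at 100 µg and 275 and 272 CPM at 20 µg, a log2 difference of -0.56 with a 95% interval from -1.12 to -0.0032 that did not pass the adjusted test. Angpt2, the vessel-destabilizing ligand of the TIE2 receptor, was at 27.7 and 29 CPM at 100 µg, 20.7 and 21.7 CPM at 20 µg and 46.4 and 42.3 CPM in PBS, and its dose difference of 0.42 had an interval from -0.062 to 0.90. Tek, which encodes TIE2, and Tie1 differed by 1.83 and 1.33 with adjusted p of 0.0538 and 0.0591 in edgeR, just outside the limit. The lymphatic regulator Prox1 differed by -0.07, and its neighbors in the list Nr2f2 and Ecscr by 0.06 and 0.22. With bulk RNA, more endothelial cells and more RNA of these genes per cell cannot be told apart.

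Col4a1, a chain of the basement membrane collagen IV, was at 190 and 218 CPM at 100 µg, 76.5 and 74 CPM at 20 µg and 156 and 145 CPM in PBS, and Col4a2, another chain of collagen IV, was at 124 and 138, 56.3 and 59, and 125 and 113 CPM in the same order. They rose by 1.44 ± 0.20 and 1.18 ± 0.16 (adjusted p = 0.0272 for both, edgeR). The pair is transcribed in opposite directions from 1 region of chromosome 8: in GRCm38, Col4a1 occupies chr8:11198423-11312826 on the minus strand and Col4a2 chr8:11312805-11449287 on the plus strand. Col15a1, a collagen of the basement membrane zone, had the smallest p of all genes, with 45.3 and 48 CPM at 100 µg, 15.2 and 17.1 CPM at 20 µg and 37.5 and 33.9 CPM in PBS (log2 difference 1.53 ± 0.16, adjusted p = 0.0137, edgeR). Pxdn, the peroxidase that cross-links collagen IV, rose by 1.78 ± 0.22 (adjusted p = 0.0175, edgeR). Nid2, a nidogen that links laminin to collagen IV, rose by 1.74 ± 0.26 (adjusted p = 0.0309, edgeR), and was named after its values were seen. The remaining genes among the 10 with the smallest p were Tchh, described below, and Cacna1c, a calcium channel of smooth muscle and other excitable cells, and Zc3hav1l. Cacna1c and Zc3hav1l rose by 1.70 ± 0.24 and 1.15 ± 0.17 (adjusted p = 0.0276 and 0.0309, edgeR).

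Of 21 pericyte and smooth muscle genes, 1 was called higher, against 0.23% of all genes. At an unadjusted p below 0.05 in edgeR, 9 were higher, against 6.56% of all genes, and none lower. The median difference was 0.79, and DESeq2 called 4 higher, of 193 over all genes. The called gene was Abcc9, the sulfonylurea receptor subunit of vascular potassium channels, with 7 and 10.1 CPM at 100 µg, 1.38 and 1.31 CPM at 20 µg and 4.44 and 4.78 CPM in PBS (log2 difference 2.66 ± 0.42, adjusted p = 0.0309, edgeR). Pdgfrb, the receptor that marks pericytes, was at 9.07 and 11.2 CPM at 100 µg and 5.55 and 4.28 CPM at 20 µg, and its difference of 1.05 did not pass (adjusted p = 0.0866, edgeR). Rgs5, another pericyte marker, differed by 2.04 (adjusted p = 0.0854, edgeR). Among the 3 members with the highest mean CPM, Mcam differed by 0.86, Mylk by 0.30 and Tbx2 by -0.21, none past the test; B16F10 cells may also express them.

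Fibroblast and collagen genes had a median dose difference of 0.99, with 0 of 22 called by edgeR. DESeq2 called 5 higher, of 193 over all genes. At an unadjusted p below 0.05 in edgeR, 11 were higher, against 6.56% of all genes. Their summed levels were 1850 and 1792 CPM at 100 µg against 964 and 1237 CPM at 20 µg. Skeletal muscle genes had a median difference of 1.38, with 0 of 20 called by edgeR and 2 called by DESeq2. At an unadjusted p below 0.05 in edgeR, 4 were higher, against 6.56% of all genes. The sums of the list were 700 and 806 CPM at 100 µg, 154 and 403 CPM at 20 µg and 140 and 235 CPM in PBS. Keratinocyte genes differed by a median of 1.73 with 0 of 20 called by edgeR or DESeq2 and 0 at an unadjusted p below 0.05, and summed to 13.6 and 42.3 CPM at 100 µg, 19.5 and 8.97 CPM at 20 µg and 296 and 171 CPM in PBS. A gene of the hair follicle, Tchh, had 207 and 2193 counts at 100 µg, 2 and 1 counts at 20 µg and 1 and 4 counts in PBS. Tchh was called higher at 100 µg than at 20 µg (adjusted p = 0.0207, edgeR), with too few counts at 20 µg for a fold, and most of its counts came from 1 of the 100 µg tumors. The dose difference over all genes also increased with transcript length, from a median of -0.119 among genes with transcripts of up to 1931 bases to 0.139 among those of 4563 bases or more, when genes were split into 4 equal groups by length. With offsets for length and GC content, an alternative added after seeing the data, the endothelial median was 1.29 with 11 genes called higher and the interferon gamma-leaning median described below was -1.37 with 8 genes called lower. In all, 87 genes were called with these offsets, and 57 of them were among the 77; of the genes named here, Bst2, Psme1, Psme2, Ptgds, Phlda3, Haghl, Uba7 and Zc3hav1l were no longer called. The part of stromal, muscle and skin tissue in the result was not tested.

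Of the 38 genes that fell at 100 µg, 12 were in a list, and 8 of those were in the interferon gamma-leaning list. Promoters are shown for 2 antiviral and 2 MHC class I genes whose values are given below. Isg15 and Bst2 carry the interferon-stimulated response element (ISRE, letters GAAANNGAAA on either strand), and H2-K1 and H2-D1 carry a motif of NF-kB. Each sequence runs from 250 bases before to 50 bases after the transcription start, as given by RefSeq for GRCm38.p6, and capitals mark the motif, which spans 22 bases in Isg15 where 3 matches overlap, 16 bases in Bst2 where 2 overlap and 11 bases in each H2 gene. The windows are chr4:156200769-156201068 (minus strand) for Isg15, chr8:71537423-71537722 (minus) for Bst2, chr17:34000298-34000597 (minus) for H2-K1 and chr17:35262844-35263143 (plus) for H2-D1.
Isg15: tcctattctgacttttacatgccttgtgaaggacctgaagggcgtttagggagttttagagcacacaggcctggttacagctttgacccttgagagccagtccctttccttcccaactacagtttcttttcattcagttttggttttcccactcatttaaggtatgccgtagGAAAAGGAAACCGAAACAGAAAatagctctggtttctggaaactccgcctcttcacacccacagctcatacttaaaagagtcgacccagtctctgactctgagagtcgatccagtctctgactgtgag
Bst2: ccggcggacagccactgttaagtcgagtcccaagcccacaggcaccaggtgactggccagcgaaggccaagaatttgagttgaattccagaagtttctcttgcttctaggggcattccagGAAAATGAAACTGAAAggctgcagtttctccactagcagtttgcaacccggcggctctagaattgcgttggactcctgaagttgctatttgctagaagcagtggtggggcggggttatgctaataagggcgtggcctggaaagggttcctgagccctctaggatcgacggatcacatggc
H2-K1: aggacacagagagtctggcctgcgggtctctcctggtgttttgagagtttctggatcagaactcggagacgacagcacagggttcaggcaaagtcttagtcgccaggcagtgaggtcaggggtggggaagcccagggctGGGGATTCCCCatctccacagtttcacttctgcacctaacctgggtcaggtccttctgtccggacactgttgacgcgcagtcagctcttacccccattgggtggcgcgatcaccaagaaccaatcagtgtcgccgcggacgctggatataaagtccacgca
H2-D1: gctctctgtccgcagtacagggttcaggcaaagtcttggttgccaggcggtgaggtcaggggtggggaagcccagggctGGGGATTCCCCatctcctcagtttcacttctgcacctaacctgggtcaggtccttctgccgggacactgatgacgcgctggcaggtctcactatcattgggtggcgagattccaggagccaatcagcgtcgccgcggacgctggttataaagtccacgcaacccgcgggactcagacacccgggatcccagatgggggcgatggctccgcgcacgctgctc

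Over all 27025 genes with a promoter in the RefSeq table, 3.99% held the ISRE letters, 9.55% held the gamma-activated site letters TTCNNNGAA on either strand and 5.14% held the NF-kB motif. Among the antiviral genes, 16 of the 35 with a promoter in the table held the ISRE, and among the interferon gamma-leaning genes 11 of 25 did. The NF-kB motif occurred in 2 of the 35 and 7 of the 25, and the gamma-activated site in 8 and 7. The 2 H2 windows held no match of the exact ISRE letters, and elements that depart from these letters were not searched for. The Bst2 window also held 1 match of the NF-kB motif and 2 of the gamma-activated site. No endothelial gene of the 21 in the table held an ISRE or gamma-activated site.

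Of 36 interferon gamma-leaning genes, 8 were called lower at 100 µg than at 20 µg, against 0.224% of all genes, and none higher. At an unadjusted p below 0.05 in edgeR, 26 were lower, against 9.97% of all genes. In 32 both 100 µg tumors lay below both 20 µg tumors, against 28.7% of all genes. DESeq2 called 21 lower, of 205 over all genes. The list median was -1.47 on the log2 scale. H2-K1, a classical MHC class I heavy chain, was at 214 and 291 CPM at 100 µg, 1039.6 and 1429 CPM at 20 µg and 805 and 880 CPM in PBS. The 100 µg tumors were thus below PBS as well as below 20 µg. H2-K1 fell by 2.29 on the log2 scale between the amounts (SE 0.38, adjusted p = 0.0324, edgeR), and it was also called lower than PBS at 100 µg, at a log2 difference of -1.74. H2-D1 was at 366 and 455 CPM at 100 µg, 1524 and 1986 CPM at 20 µg and 1109 and 1230.0 CPM in PBS, a dose difference of -2.10 ± 0.34 (adjusted p = 0.0316, edgeR). These heavy chains are near-identical paralogs, and how reads were split between them is uncertain. B2m, their shared light chain, was at 553 and 702 CPM at 100 µg, 1618 and 1862 CPM at 20 µg and 1205 and 1328 CPM in PBS, and its difference of -1.47 fell just outside the test (adjusted p = 0.0524, edgeR).

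The immunoproteasome was lower at 100 µg in each of its inducible parts. Psmb10, a catalytic subunit, was at 64.5 and 80.3 CPM at 100 µg, 224 and 319 CPM at 20 µg and 160 and 188 CPM in PBS (log2 difference -1.91 ± 0.33, adjusted p = 0.0397, edgeR). The other inducible catalytic subunits, Psmb8 and Psmb9, were named after their values were seen. Psmb8 was at 23.5 and 34 CPM at 100 µg, 178 and 306 CPM at 20 µg and 152 and 179 CPM in PBS, and Psmb9 at 16.3 and 20.1, 119 and 193, and 90.6 and 102 CPM. They fell by 3.07 and 3.10 on the log2 scale (adjusted p = 0.0483 for both, edgeR) and were called lower than PBS too. Psme1 and Psme2, the subunits of the proteasome activator PA28, fell by 1.48 and 1.60 on the log2 scale (adjusted p = 0.0446 and 0.0483, edgeR). Psme1, at chr14:55578123-55581529 in GRCm38, was at 88.7 and 101 CPM at 100 µg, 228 and 300.2 CPM at 20 µg and 169.8 and 192 CPM in PBS.

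**Figure D2:**
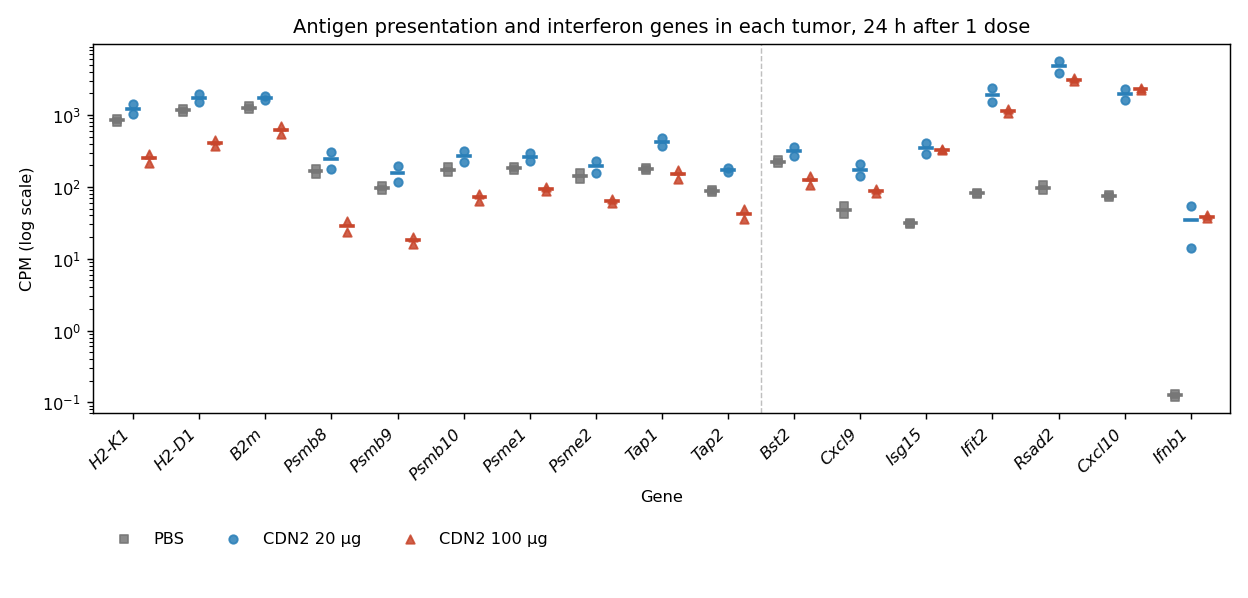
Levels of 17 antigen presentation and interferon genes in each tumor, in CPM on a log axis, with gray squares for PBS, blue circles for 20 µg CDN2 and red triangles for 100 µg CDN2; the short line is the mean of 2 tumors. Left of the dashed line, all genes but B2m and Tap1 were called lower at 100 µg, and the 100 µg tumors lie below the 20 µg tumors in all 10. Right of it, Isg15, Cxcl10 and Ifnb1 overlap between the amounts and lie far above PBS.

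Tap2, a subunit of the peptide transporter, fell by 2.03 on the log2 scale (adjusted p = 0.0484, edgeR), while Tap1 differed by -1.50 and did not pass (adjusted p = 0.0679, edgeR). Tap2 was at 35.3 and 49.5 CPM at 100 µg and 162 and 183 CPM at 20 µg. H2-DMb1, which loads peptides on MHC class II and was in no list, was at 7.71 and 10.8 CPM at 100 µg, 53.4 and 93.2 CPM at 20 µg and 62.4 and 68.6 CPM in PBS, and fell by 2.98 on the log2 scale (adjusted p = 0.0446, edgeR). The transactivators of the MHC genes did not pass: Ciita, for class II, was at 0.444 and 1.07 CPM at 100 µg against 8.18 and 11.5 CPM at 20 µg (log2 difference -3.69, adjusted p = 0.0817, edgeR), and Nlrc5, for class I, at 32.2 and 46.2 CPM against 92.8 and 109 CPM (-1.36, adjusted p = 0.094, edgeR). Each of these genes outside the naming rule was picked after its values were seen.

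Other named members of the interferon gamma-leaning list did not pass the test between the amounts. Cxcl10, a chemokine for T cells induced by either type of interferon, was at 2421 and 2249 CPM at 100 µg, 1601 and 2293 CPM at 20 µg and 72.2 and 76 CPM in PBS. Its dose difference of 0.26 had a 95% interval from -0.54 to 1.06. Cxcl9, which depends more on interferon gamma, was at 81.3 and 94.2 CPM at 100 µg, 140.3 and 207 CPM at 20 µg and 42.3 and 53.4 CPM in PBS; the difference of -0.98 did not pass (adjusted p = 0.208, edgeR). Irgm1, an interferon-inducible GTPase, was at 819 and 810 CPM against 1044 and 1541 CPM (difference -0.67, interval -1.40 to 0.064). Cd274, the checkpoint ligand PD-L1, was at 202 and 216 CPM at 100 µg, 229 and 319 CPM at 20 µg and 29.2 and 30.7 CPM in PBS, with a dose difference of -0.39 (interval -1.32 to 0.54).

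Antiviral genes were high at both amounts. Of 47 measured, 35 were called higher than PBS at 100 µg and 41 at 20 µg, where 1.82% and 2.26% of all genes were called higher. Between the amounts 1 was called lower, against 0.224% of all genes, and none higher. At an unadjusted p below 0.05 in edgeR, 23 were lower, against 9.97% of all genes. The median difference was -0.50, and DESeq2 called 9 lower, of 205 over all genes. The called gene was Bst2, the tethering factor tetherin, at 108 and 140 CPM at 100 µg, 273 and 354 CPM at 20 µg and 213 and 236 CPM in PBS (log2 difference -1.34 ± 0.26, adjusted p = 0.0483, edgeR). It differed from most of its list in not passing the test against PBS at either amount.

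Isg15, a ubiquitin-like protein, was at 334 and 328 CPM at 100 µg, 285 and 409 CPM at 20 µg and 30.8 and 31.7 CPM in PBS, a dose difference of -0.07 with an interval from -0.57 to 0.43. Rsad2, which encodes viperin, was at 3023 and 3237 CPM at 100 µg, 3807 and 5706 CPM at 20 µg and 105 and 89.2 CPM in PBS, with an interval from -1.38 to 0.17. The interval for Ifit2, at 1226 and 1056 CPM against 1504 and 2363 CPM, was -1.59 to 0.07, and that for Ifit3, at 1599 and 1357 CPM against 1415 and 1935 CPM, was -0.82 to 0.46. The amounts overlapped for Isg15 and Ifit3 and did not for Rsad2 and Ifit2. Irf7, the transcription factor that amplifies interferon production, was at 64.1 and 84.2 CPM against 132 and 179 CPM and did not pass (adjusted p = 0.0803, edgeR).

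Apol9a, Gm12250 and Trafd1, which were in no list, were among the 10 lower genes with the smallest p. Apol9a was at 36.4 and 52.7 CPM at 100 µg, 218 and 372 CPM at 20 µg and 44.1 and 43.7 CPM in PBS, so the 20 µg tumors alone stood apart (log2 difference -2.73 ± 0.47, adjusted p = 0.0395, edgeR). Gm12250 showed 27.9 and 36.4, 146 and 262, and 24.2 and 30.9 CPM (-2.66 ± 0.46, adjusted p = 0.0395, edgeR). Trafd1, a feedback regulator of innate signaling, was at 52 and 63.4 CPM at 100 µg, 155 and 210 CPM at 20 µg and 38.1 and 40 CPM in PBS (-1.66 ± 0.26, adjusted p = 0.0309, edgeR). All 3 were called higher than PBS at 20 µg and did not pass at 100 µg. The others were Ptgds, a prostaglandin synthase, Tmco4, Phlda3, Haghl, Idnk and the H2 genes; Ptgds was at 490 and 523 CPM against 1270.0 and 970.0 CPM, and fell by 1.15 on the log2 scale (adjusted p = 0.0309, edgeR). Uba7, the activating enzyme for Isg15, and Il18bp, the decoy that binds interleukin 18, were named after their values were seen and fell by 1.52 and 2.16 on the log2 scale.

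Interferon genes did not pass the test between the amounts. Ifnb1, interferon beta, was at 40.6 and 36.8 CPM at 100 µg, 14 and 54.9 CPM at 20 µg and 0.132 and 0.12 CPM in PBS. The 20 µg tumors lay on either side of the 100 µg tumors, and the dose difference of 0.17 had an interval from -1.52 to 1.86. Ifng, interferon gamma, was at 0.616 and 2.8 CPM at 100 µg, 1.68 and 11.9 CPM at 20 µg and 0.949 and 1.56 CPM in PBS; the amounts overlapped and the difference of -1.99 did not pass (adjusted p = 0.265, edgeR). Of 13 interferon ligands and receptors, 0 were called between the amounts by edgeR or DESeq2, and 1 had an unadjusted p below 0.05. Tmem173, which encodes STING, was at 52.2 and 54.8 CPM at 100 µg, 77.4 and 84.2 CPM at 20 µg and 55.2 and 56.5 CPM in PBS, and its difference of -0.59 did not pass (adjusted p = 0.0931, edgeR).

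**Figure D3:**
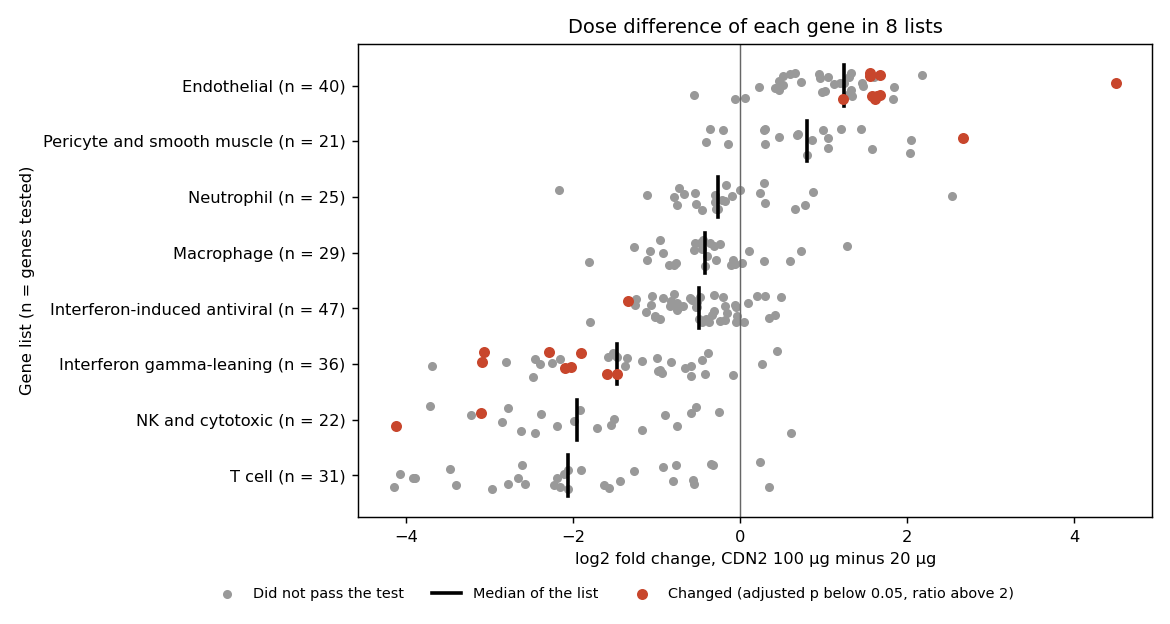
Dose difference of every tested gene in 8 lists, on a log2 scale with positive values higher at 100 µg; gray points did not pass the test, red points changed, and the black bar is the median of the list. The bar of the endothelial list lies at 1.24, those of the T cell, NK and cytotoxic and interferon gamma-leaning lists lie between -2.07 and -1.47, and the other lists lie between -0.50 and 0.79.

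Of 31 T cell genes, 0 changed between the amounts in edgeR, but 20 had an unadjusted p below 0.05 and all 20 were lower at 100 µg, against 9.97% of all genes; the median difference was -2.07. DESeq2 called 12 of the 31 lower, of 205 over all genes. In 26 of the 31 both 100 µg tumors lay below both 20 µg tumors, against 28.7% of all genes. Against PBS, 7 T cell genes were called lower at 100 µg, where 0.62% of all genes were, and 0 at 20 µg in edgeR, where 0.886% were. The median differences from PBS were -1.86 and 0.25.

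Cd8a, the coreceptor of cytotoxic T cells, had 0 and 11 counts at 100 µg, 79 and 80 counts at 20 µg and 110 and 134 counts in PBS. The amounts did not overlap, but the difference of -3.92 did not pass (adjusted p = 0.0782, edgeR) and its interval ran from -5.93 to -1.90. Cd3e, a chain of the T cell receptor complex, had 1 and 4 counts at 100 µg, 21 and 33 counts at 20 µg and 44 and 76 counts in PBS (difference -3.48, adjusted p = 0.0654, edgeR). Both were called lower than PBS at 100 µg. Cd4, which macrophages and dendritic cells can also express, was at 0.961 and 0.724 CPM at 100 µg and at 0.4 and 2.12 CPM at 20 µg, so the amounts overlapped.

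The 3 T cell genes with the highest mean CPM were Tcf7, Lck and Il7r. Tcf7, a transcription factor of naive and stem-like T cells, was at 8.03 and 7 CPM at 100 µg, 12.1 and 16.4 CPM at 20 µg and 16.3 and 16.4 CPM in PBS (difference -0.93, adjusted p = 0.0666, edgeR), and it was called lower than PBS at 100 µg. Lck, a T cell kinase, was at 7.84 and 7.72 CPM against 9.05 and 10.5 CPM, and Il7r, a cytokine receptor, at 2.88 and 4.27 CPM against 2.53 and 3.13 CPM. Their differences of -0.33 and 0.34 had intervals from -0.87 to 0.21 and from -0.71 to 1.39. Whether other cells of the tumor contributed to these levels was not tested.

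The lymphocyte genes that passed the test in edgeR were cytotoxic genes. Of 22 NK and cytotoxic genes, 2 fell at 100 µg, against 0.224% of all genes, and none rose. At an unadjusted p below 0.05 in edgeR, 13 were lower, against 9.97% of all genes. The median difference was -1.96, and DESeq2 called 8 lower, of 205 over all genes. Prf1, the pore-forming perforin of cytotoxic granules, was at 0.32 and 0.475 CPM at 100 µg, 3.7 and 3.16 CPM at 20 µg and 3.44 and 3.82 CPM in PBS, and fell by 3.10 on the log2 scale (SE 0.55, adjusted p = 0.0413, edgeR). Nkg7, a membrane protein of those granules, had 1 and 9 counts at 100 µg, 68 and 98 counts at 20 µg and 103 and 158 counts in PBS, and fell by 4.13 on the log2 scale (SE 0.75, adjusted p = 0.0446, edgeR). Both were called lower than PBS at 100 µg, and their differences between 20 µg and PBS, -0.08 for Prf1 and -0.29 for Nkg7, did not pass.

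Gzmb, the granule protease granzyme B, was at 1.23 and 2.42 CPM at 100 µg, 8.25 and 11.9 CPM at 20 µg and 5.37 and 5.98 CPM in PBS (difference -2.46, adjusted p = 0.0539, edgeR). Tbx21, the regulator T-bet, had 3 and 3 counts at 100 µg against 21 and 15 counts at 20 µg and was just as close to the limit (adjusted p = 0.0539, edgeR). Klrk1, the activating receptor NKG2D, was at 1.21 and 1.47 CPM against 2.65 and 5 CPM and did not pass. Ncr1, which marks NK cells, had 0 and 1 counts at 100 µg and 1 and 7 counts at 20 µg, too few to compare. Of 16 B cell genes, 11 passed the filter on low counts, 0 changed in edgeR, 1 was called lower by DESeq2 and 1 was lower at an unadjusted p below 0.05.

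**Figure D4:**
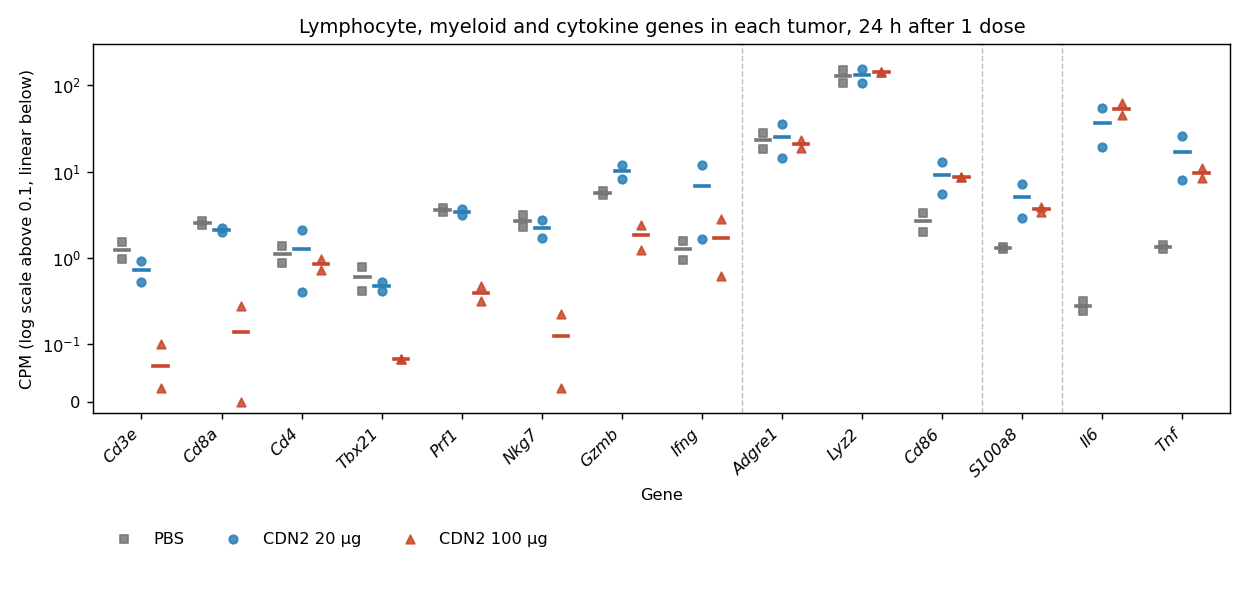
Levels of 14 lymphocyte, myeloid and cytokine genes in each tumor, in CPM on an axis that is logarithmic above 0.1 and linear below, with gray squares for PBS, blue circles for 20 µg CDN2 and red triangles for 100 µg CDN2; the short line is the mean of 2 tumors. Cd3e, Cd8a, Tbx21, Prf1, Nkg7 and Gzmb are lower in the 100 µg tumors than in all others, while the 2 amounts overlap for the macrophage and neutrophil genes, Il6 and Tnf.

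Myeloid genes did not pass the test between the amounts in edgeR. Of 29 macrophage genes, 0 changed in edgeR or DESeq2, and the median difference was -0.42. At an unadjusted p below 0.05 in edgeR, 1 was higher and 6 were lower, against 6.56% and 9.97% of all genes. Adgre1, the macrophage marker F4/80, was at 23.3 and 18.7 CPM at 100 µg, 14.4 and 35.3 CPM at 20 µg and 18.5 and 27.9 CPM in PBS, a difference of -0.24 with an interval from -1.25 to 0.77. Lyz2, lysozyme, was at 141 and 141 CPM against 107 and 155 CPM, with an interval from -0.45 to 0.66. Both genes overlapped between the amounts, and the interval for Adgre1 still allows a ratio of 2 in the lower direction. Gpnmb and Apoe, the members with the highest CPM, are also melanoma genes and differed by -0.36 and -0.42. Mrc1, the mannose receptor CD206, was at 35.9 and 27.5 CPM at 100 µg, 10.5 and 15.7 CPM at 20 µg and 18.8 and 21.5 CPM in PBS; it was the macrophage gene with an unadjusted p below 0.05 in the upward direction and did not pass the adjusted test (adjusted p = 0.183, edgeR).

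Among 25 neutrophil genes, 0 changed between the amounts in edgeR or DESeq2 and 0 had an unadjusted p below 0.05. The median difference was -0.27, and it turned to 0.41 without the second 20 µg tumor. Against PBS the list was higher at both amounts, by medians of 1.55 at 100 µg and 1.95 at 20 µg. In the same order 2 and 4 genes were called higher, where 1.82% and 2.26% of all genes were. S100a8, a calprotectin subunit, was at 3.38 and 3.92 CPM at 100 µg, 2.88 and 7.18 CPM at 20 µg and 1.32 and 1.26 CPM in PBS. S100a9, its partner, was at 6.01 and 7.49 CPM, 4.43 and 11.9 CPM, and 1.66 and 1.32 CPM. In both genes the 20 µg tumors enclosed the 100 µg tumors. Acod1, an enzyme of activated phagocytes, and Hdc, histidine decarboxylase, differed by -0.53 and 0.24, and each was called higher than PBS at both amounts.

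Of 18 monocyte genes and 25 dendritic cell genes, 0 changed between the amounts in edgeR. At an unadjusted p below 0.05 in edgeR, 1 monocyte gene was higher and 4 were lower. In the dendritic cell list 2 were higher and 3 lower. Over all genes, 6.56% were higher and 9.97% lower. DESeq2 called 1 monocyte gene lower and 0 dendritic cell genes. Ccr2, the receptor that brings monocytes into tissue, was at 0.937 and 1.27 CPM at 100 µg, 1.88 and 2.85 CPM at 20 µg and 6.45 and 10.8 CPM in PBS, and was called lower than PBS at 100 µg. Batf3, a transcription factor of cross-presenting dendritic cells, was at 1.01 and 1.7 CPM against 1.05 and 1.9 CPM. Xcr1, their chemokine receptor, had 7 and 5 counts at 100 µg and 9 and 13 counts at 20 µg. Cd86, a costimulatory ligand, was at 8.77 and 8.62 CPM at 100 µg, 5.5 and 12.9 CPM at 20 µg and 2.01 and 3.36 CPM in PBS, a dose difference of -0.08 with an interval from -1.03 to 0.88.

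Inflammatory cytokines and chemokines were higher than PBS at both amounts. Of 34 measured, 18 were called higher at 100 µg and 20 at 20 µg, where 1.82% and 2.26% of all genes were. The medians were 2.98 and 2.99. Between the amounts the median was -0.04 and 1 gene changed. That gene was Il18, at 1.65 and 2 CPM at 100 µg, 5.78 and 6.15 CPM at 20 µg and 3.31 and 3.86 CPM in PBS (difference -1.71 ± 0.33, adjusted p = 0.0484, edgeR). Il6 was at 61.8 and 45.3 CPM at 100 µg, 19.1 and 54.4 CPM at 20 µg and 0.243 and 0.32 CPM in PBS, a dose difference of 0.54 with an interval from -1.18 to 2.26. Tnf was at 8.4 and 11.1 CPM against 8.05 and 25.6 CPM, with an interval from -1.95 to 0.38. Ccl5, a chemokine for T cells and monocytes, was at 142 and 119 CPM against 137 and 211 CPM, with an interval from -1.13 to 0.29. In all 3 the amounts overlapped.

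Of 22 adhesion and coagulation genes of the endothelium measured, 0 changed in edgeR or DESeq2, 2 were higher at an unadjusted p below 0.05 and the median difference was 0.05. Selp, the selectin that captures leukocytes on activated vessels, was at 3.94 and 5.15 CPM at 100 µg, 3.58 and 5.2 CPM at 20 µg and 0.508 and 0.919 CPM in PBS, and was called higher than PBS at both amounts. Thbd, the anticoagulant receptor thrombomodulin, was at 5.77 and 7.89 CPM at 100 µg and 1.57 and 2.01 CPM at 20 µg (adjusted p = 0.259, edgeR).

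**Figure D5:**
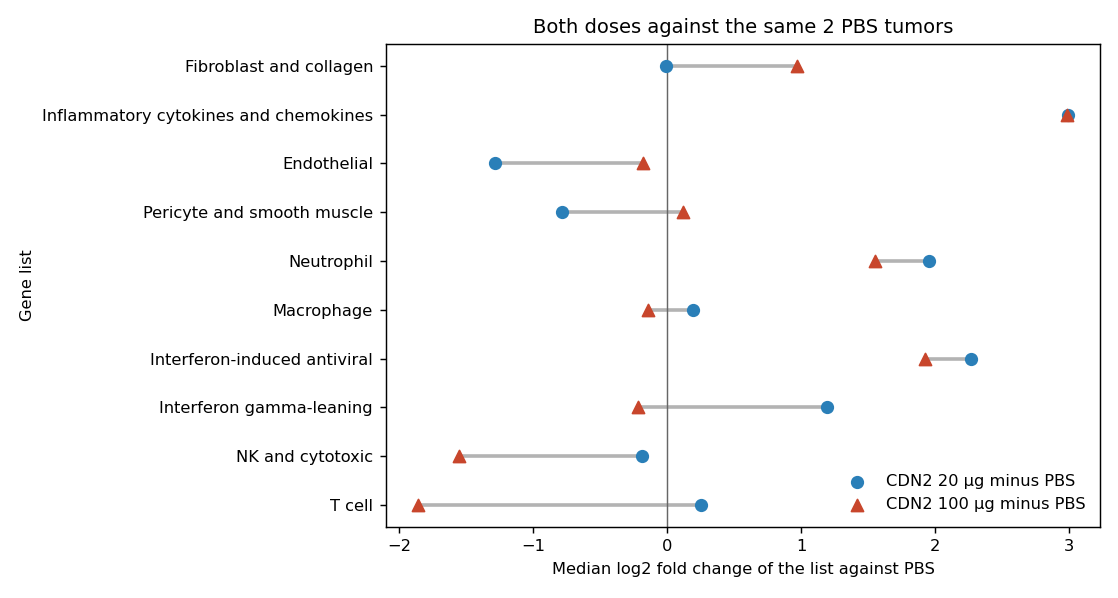
Median log2 fold change of 10 gene lists against the same 2 PBS tumors, with blue circles for 20 µg CDN2, red triangles for 100 µg CDN2 and a gray line joining the pair. The endothelial list lies at -1.29 for 20 µg and -0.18 for 100 µg, the T cell list at 0.25 and -1.86, and the inflammatory list at 2.99 and 2.98.

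Set beside PBS, the 77 genes called between the amounts fell into a few orders. Both comparisons with PBS use the same PBS tumors. The 77 genes were picked with the same 20 and 100 µg tumors, so the counts below partly follow from that choice. Of the 39 genes that rose, 29 were called lower than PBS at 20 µg and did not pass at 100 µg. Another 4 were called higher than PBS at 100 µg and 6 passed in neither. Over all genes, 0.886% were called lower than PBS at 20 µg and 1.82% higher at 100 µg. Among the 39, the 20 µg mean was the lowest of the groups in 10 genes whose PBS mean was highest. It was also lowest in 26 whose 100 µg mean was highest. Of the 38 genes that fell, 8 were called lower than PBS at 100 µg, 6 higher than PBS at 20 µg and 24 passed in neither. Over all genes, 0.62% were called lower than PBS at 100 µg and 2.26% higher at 20 µg. The order 100 µg, PBS, 20 µg from lowest to highest held for 30 of the 38. Endothelial genes were called lower than PBS in 18 of 40 at 20 µg, where 0.886% of all genes were. At 100 µg 1 of 40 was called lower, where 0.62% of all genes were.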

How the data were processed

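RNA was extracted from whole B16F10 tumors and sequenced. Per the labels and the study's methods, the authors aligned reads to the mouse genome (mm10, GRCm38), quantified genes with RSEM and deposited expected counts, which are estimated read counts that need not be whole. They were rounded here before testing, and 50376 of 50600 gene identifiers received a symbol. Genes with low counts were removed (minimum count 10, minimum total 15), counts were scaled by TMM, and edgeR 4.0.16 in R 4.3.3 fitted 16 tumors with 1 mean per group, leaving 8 residual degrees of freedom and a common biological coefficient of variation of 0.22. CPM values are TMM-scaled. Replicate tumors differed beyond sampling noise (chi-square per degree of freedom at least 10.6). DESeq2 1.42.0 was an alternative. Intervals are 95%. Replicate numbers did not pair the tumors.

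Named genes were the 10 called in each direction with the smallest p and non-overlapping tumors, and up to 4 called each way per list. They also included the 3 members of each of 8 main lists with the highest mean CPM, and a fixed set of marker genes. Most exceptions are stated as such. Also outside this rule, without a statement in place, were Isg15, Psme2, Rgs5, Tek, Tie1, Prox1, Nr2f2, Ecscr, Irf7, Mrc1, Ccr2, Selp, Thbd, Ldha and Pgk1. The members and the 26 gene lists were chosen with earlier results of these data known. Of 616 listed genes, 591 were tested. The scripts were tested on simulated counts. Gene positions come from GENCODE M21 and promoters from RefSeq, both on GRCm38. Some genes that the naming rule covers are not reported here.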

Additional observations from a re-analysis of the deposited data

How the results depend on the processing

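In the comparison of 100 with 20 µg, the 77 calls (39 higher, 38 lower) became 398 (193 and 205) with DESeq2, 800 (482 and 318) without the filter on low counts, 654 (392 and 262) with only the tumors given 1 dose, 335 (175 and 160) with only the groups compared, and 48 with the replicate block, of which 15 were lower. Without 1 tumor the counts ranged from 0 to 14 in all, 0 to 14 for higher genes and 0 for lower genes. Against PBS, 413 genes were called at 100 µg, and 667 with DESeq2, 1178 without the filter, 803 with 1-dose tumors only, 1352 with only the groups compared and 86 to 179 without 1 tumor. The 532 calls at 20 µg became 1076 without the filter, 933 with 1-dose tumors only and 167 to 555 without 1 tumor. RLE scaling and the limit on the ratio moved none of these counts by more than 1.5 times. The tumors share only a replicate number: deviations of same-numbered 100 and 20 µg tumors correlated at r = 0.0589, and under the block the calls of Esam, Sox17, Psmb8, Psmb9, Tap2, Prf1, Il18, Haghl, Il18bp, Uba7 and H2-DMb1 were lost. Causes of these shifts were not tested.

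Without 1 tumor, list medians ranged from -2.48 to -1.51 for T cell, -2.47 to -1.17 for NK and cytotoxic, -0.66 to 0.41 for neutrophil, 0.85 to 1.44 for endothelial and 0.62 to 0.82 for pericyte genes. No called gene named here changed direction under any alternative. Uncalled genes that did ranged, without 1 tumor, from -0.40 to 0.056 for Ifit3, -0.51 to 1.46 for Ifnb1, -3.46 to 0.020 for Ifng, -0.31 to 0.21 for Isg15, -1.34 to 1.07 for Cd4, -0.76 to 0.54 for Adgre1, -0.14 to 0.39 for Lyz2, -0.57 to 0.66 for Cd86, -0.55 to 0.36 for Batf3, -0.98 to 0.34 for S100a8, -0.82 to 0.60 for S100a9, -0.12 to 0.70 for Hdc, -1.40 to 0.27 for Tnf, -0.029 to 1.48 for Il6 and -0.20 to 0.34 for Selp. With offsets for length and GC content, added after seeing the data, Isg15 was at 0.15 and Batf3 at 0.21. The uncalled genes Prox1, Nr2f2, Ecscr, Ldha, Pgk1, Gsdmd, Zbp1 and Chac1 were not followed through the alternatives. Genes with under about 10 counts in a tumor, such as Cd8a, Cd3e, Nkg7 and Ncr1 at 100 µg, are limited by depth.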

Other observations

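Glycolysis and hypoxia genes were lower at 100 µg than at 20 µg in most members. Of 20 measured, 0 changed in edgeR or DESeq2. At an unadjusted p below 0.05 in edgeR, 13 were lower, against 9.97% of all genes, and none higher. Both 100 µg tumors lay below both 20 µg tumors in 17, against 28.7% of all genes. The median difference was -0.49. The glycolytic enzymes Ldha and Pgk1 differed by -0.40 and -0.41. The summed level was 25230 and 26970 CPM at 100 µg, 40770 and 35520 CPM at 20 µg and 33820 and 32740 CPM in PBS. Proliferation genes had a median difference of 0.11 with 0 of 30 called by edgeR or DESeq2 and 1 at an unadjusted p below 0.05.

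Red blood cell genes were higher than PBS at both amounts, with 5 of 8 measured genes called in each comparison. Over all genes, 1.82% were called higher at 100 µg and 2.26% at 20 µg. The sums of the list were 1134 and 1395 CPM at 100 µg, 1421 and 3068 CPM at 20 µg and 316 and 278 CPM in PBS. Between the amounts 0 of 8 were called by edgeR or DESeq2, and 0 had an unadjusted p below 0.05. Of 26 cell death and stress genes, 0 changed between the amounts in edgeR and 6 were called by DESeq2 (2 higher and 4 lower). At an unadjusted p below 0.05 in edgeR, 3 were higher and 8 lower, against 6.56% and 9.97% of all genes. Of the 26, Gsdmd, the pore-forming gasdermin D, differed by -1.35 and Zbp1, a sensor of nucleic acids, by -1.80. Chac1, a target of the stress factor ATF4, differed by 1.06. These genes were chosen after their values were seen. Of 24 STING pathway genes, 0 changed in edgeR, 1 was called lower by DESeq2 and the median difference was -0.28. At an unadjusted p below 0.05 in edgeR, 1 was higher and 7 were lower, against the same shares of all genes. Platelet, adipocyte and angiogenic ligand genes had median differences of -0.15, 0.10 and 0.11, with 0 called in each list by edgeR; DESeq2 called 1 platelet gene higher, and 1 platelet, 2 adipocyte and 0 angiogenic ligand genes had an unadjusted p below 0.05.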
